A study of Mus musculus with 22 samples.

Results

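The 10 mouse genes described here are Slc7a1, Sdc2, Cers6, Stk39, Arhgap32, Trim44, Eif5a2, Pogk, Zfp518b and Bend4. They were taken by gene name from a table of 49671 genes in 22 RNA-seq libraries. They were selected on low deposited values in both sorted fractions of the Creb3l1 knockout, in an earlier analysis of the same libraries. The contrast of that knockout with the control is therefore given as a description without a test. All 10 were among the 19569 genes tested (those with 10 units or more in 2 or more libraries), each through libraries outside the knockout.

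The cells were primary lines from a mouse tumour carrying Lgr5CreER, KrasLSL-G12D, p53fl/fl and Rosa26-YFP+/+, alleles shared by every library, controls included. Lgr5CreER places the recombinase under the Lgr5 promoter, so recombination starts in Lgr5-expressing cells, and the YFP reporter marks their descendants. The 5 lines were a control and knockouts of Pitx1, Klf5, Nfatc1 and Creb3l1 made with CRISPR/Cas9. Living mCherry+ YFP+ cells were sorted as EPCAM+ or EPCAM- at day 8 in each line. EPCAM+ control cells were also taken at day 0, which gave 11 groups of 2 libraries. Nothing in the labels says what day 0 starts, whether replicates are independent cultures, or whether a knockout line is 1 clone. The p-values therefore measure the spread between these libraries, which may be technical.

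Creb3l1 encodes a transcription factor of the CREB3 family that is held in the endoplasmic reticulum membrane. Regulated cleavage in the Golgi frees its N-terminal part, which enters the nucleus and is best known for switching on genes of the secretory pathway and of collagen secretion. EPCAM is an epithelial surface protein, and in carcinoma lines its loss accompanies the change towards a mesenchymal state. The 10 genes belong to no single pathway. Slc7a1 and Sdc2 act at the cell surface, Cers6 in lipid synthesis, Stk39 and Arhgap32 in signalling, Trim44 in ubiquitin metabolism and Eif5a2 in translation. Pogk, Zfp518b and Bend4 encode proteins with DNA-binding or chromatin-associated domains.

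In the deposited table every library summed to between 20007331 and 20014236, and values lay on steps of 2.02 to 3.30 units. Read as single reads, those steps gave 6054929 to 9882692 reads in genes per library, so 3 reads were worth 6.07 to 9.91 units. Creb3l1 mRNA did not check the knockout. It was at 137 and 26 in the control EPCAM- libraries and at 0 to 12 in every other library, the Creb3l1 knockout included. Epcam was at 3702 to 7320 in all EPCAM+ libraries and at 90 to 735 in all EPCAM- libraries, so the sort was visible in the mRNA.

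The genes lay on 6 chromosomes in the GENCODE M21 annotation of GRCm38. Chromosome 2 held Stk39 (68210445 to 68472268, minus strand), Cers6 (68861441 to 69114282, plus strand) and Trim44 (102300119 to 102407828, minus strand). Chromosome 5 held Zfp518b (38668484 to 38684826), Bend4 (67392147 to 67428310) and Slc7a1 (148327410 to 148399904), all on the minus strand. Pogk was on chromosome 1 (166384622 to 166409863, minus), Eif5a2 on chromosome 3 (28781276 to 28798846, plus), Arhgap32 on chromosome 9 (32116136 to 32268446, plus) and Sdc2 on chromosome 15 (32920723 to 33034935, plus). Stk39 and Cers6 lie side by side with no tested protein-coding gene between them, their starts 389.2 kb apart, and are read in opposite directions. The targeted gene is also on chromosome 2 (91982328 to 92024502), and the gap between it and Trim44 was 10275.6 kb. Chromosomes 2 and 5 held 7.85% and 7.49% of all tested genes.

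Because the 10 genes were low together, the sequence before their starts was read from the RefSeq promoter table (GRCm38.p6), which held 9 of the 10. The windows were the 250 bases before each listed start, searched on both strands. Listed starts can differ from the annotation above, and the Trim44 window lies inside the gene span given there. The Stk39 window and the Slc7a1 window that is not printed were wholly annotated exon. CREB-type factors are known for the cAMP response element TGACGTCA and for its core TGACG. The 9 genes had 12 windows, of which 5 held the core (1 each for Cers6, Eif5a2, Pogk, Slc7a1 and Trim44). Of 32851 windows of this length, 17.8% held it. Those 5 windows had 62.4 to 74.4% GC, where the median of all windows was 52.4%. The shares were not matched for GC content, so nothing is read from their difference. The whole element stood before Pogk and in 1.55% of all windows. No window of these genes held the unfolded protein response element TGACGTGG (0.563% of all windows), which also contains the core, or the endoplasmic reticulum stress element (0.113%). A match is a run of letters and not a binding site. Only windows that hold the core are printed. The 4 sequences below belong to Trim44 and Cers6, which were among the lowest in the knockout, to Slc7a1, the most abundant gene of the set, and to Pogk, the gene with the whole element. They read 5′ to 3′ on the strand of the gene, and capitals mark the core or its reverse complement, extended to the whole element in Pogk. They are chr2:102400901-102401150 (Trim44), chr2:68861191-68861440 (Cers6), chr5:148399905-148400154 (Slc7a1) and chr1:166409864-166410078 (Pogk, 215 bases that leave out annotated exon).
Trim44: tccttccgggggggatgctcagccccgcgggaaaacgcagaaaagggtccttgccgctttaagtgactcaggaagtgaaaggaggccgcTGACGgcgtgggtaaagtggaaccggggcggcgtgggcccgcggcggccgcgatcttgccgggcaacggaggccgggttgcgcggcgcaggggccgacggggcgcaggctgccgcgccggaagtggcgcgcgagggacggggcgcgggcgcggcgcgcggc
Cers6: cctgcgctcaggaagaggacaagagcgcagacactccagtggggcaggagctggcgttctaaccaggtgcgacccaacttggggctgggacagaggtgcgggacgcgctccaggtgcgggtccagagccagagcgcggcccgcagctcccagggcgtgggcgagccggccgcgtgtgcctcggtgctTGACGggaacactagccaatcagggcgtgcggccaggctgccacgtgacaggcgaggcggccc
Slc7a1: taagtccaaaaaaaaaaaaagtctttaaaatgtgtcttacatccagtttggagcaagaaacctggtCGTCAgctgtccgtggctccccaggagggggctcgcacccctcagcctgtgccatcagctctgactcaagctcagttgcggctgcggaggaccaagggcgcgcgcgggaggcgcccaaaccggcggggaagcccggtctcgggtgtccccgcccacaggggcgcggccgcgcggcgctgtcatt
Pogk: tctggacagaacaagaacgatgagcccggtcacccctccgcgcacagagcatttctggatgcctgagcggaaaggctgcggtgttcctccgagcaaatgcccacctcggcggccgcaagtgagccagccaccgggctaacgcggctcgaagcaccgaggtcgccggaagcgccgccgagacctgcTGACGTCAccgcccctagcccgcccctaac

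The surface genes include the most abundant member. Slc7a1, the main transporter of arginine and lysine into many cell types and the receptor of ecotropic murine leukaemia virus, was at 25551 and 28160 in control EPCAM+ cells and at 28605 and 26164 in control EPCAM- cells. The Creb3l1 knockout had 5939 and 4216 in EPCAM+ cells and 5152 and 3538 in EPCAM- cells. The knockout libraries did not overlap with the control, and they were below the lowest of all 18 other libraries (18130, in a Klf5 knockout EPCAM- library). The ratio of means was 5.29-fold in EPCAM+ and 6.30-fold in EPCAM- cells. These are bulk samples, in which fewer cells that express a gene and less RNA per cell cannot be told apart. At 15.9 to 18.9% of the control mean, Slc7a1 was still the most abundant gene of the set in the knockout.

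Sdc2, a transmembrane heparan sulfate proteoglycan of mesenchymal cells, was at 0 in all 4 Creb3l1 knockout libraries. The control had 47 and 71 in EPCAM+ and 183 and 195 in EPCAM- cells. With 3 reads per library in place of 0, it was at least 8.77-fold lower in EPCAM+ and at least 25.0-fold lower in EPCAM- cells. The lowest of the other 18 libraries was at 7, an Nfatc1 knockout EPCAM+ library, where it is the worth of 2 reads. At this depth the knockout libraries and that library could not be told apart for Sdc2.

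Among the enzymes and signalling genes the residual levels were a few percent. Cers6, a ceramide synthase that makes ceramides with long acyl chains, was at 974 and 1097 in control EPCAM+ and at 2192 and 1683 in control EPCAM- cells. The knockout had 8 and 5 in EPCAM+ and 75 and 20 in EPCAM- cells, which is 159-fold and 40.8-fold lower. The EPCAM+ values are 5 reads in all, and the ratio counted in reads was 186-fold with a counting interval of 79.4 to 575. In EPCAM- cells the log2 difference of -5.59 was -6.52 without knockout replicate 1 and -4.66 without replicate 2. All 4 values lay under the lowest of the 18 others, 443. Within the knockout both EPCAM- values were above both EPCAM+ values.

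Stk39 encodes SPAK, the kinase that WNK kinases activate to control cation chloride cotransporters. It was at 379 and 536 in control EPCAM+ and at 143 and 459 in control EPCAM- cells, with the control EPCAM- libraries far apart. The knockout had 18 and 19 in EPCAM+ and 8 and 13 in EPCAM- cells, 24.7-fold and 28.7-fold lower than the control means. In EPCAM- cells the log2 difference of -4.52 was -5.36 without control replicate 1 and -3.68 without replicate 2. Arhgap32, a GTPase-activating protein, was at 28 and 29 in knockout EPCAM+ and at 44 and 40 in knockout EPCAM- cells. Its control values were 308 and 542 in EPCAM+ and 419 and 560 in EPCAM- cells, which gives 14.9-fold and 11.7-fold. For both genes the lowest of the other 18 libraries came from the same Pitx1 knockout EPCAM+ library, with 45 for Stk39 and 149 for Arhgap32.

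Trim44, an unusual TRIM protein that carries a ubiquitin-protease zinc finger and no RING finger, was the most complete loss among the well-expressed genes. The control had 726 and 842 in EPCAM+ and 736 and 991 in EPCAM- cells. The knockout had 3 and 0 in EPCAM+ and 0 and 0 in EPCAM- cells, a single read over all 4 libraries. In EPCAM+ cells the ratio was 705-fold with a counting interval of 126 to 27900, and in EPCAM- cells it was at least 114-fold. The fitted log2 difference in EPCAM+ cells, -8.61, was -9.61 without the knockout library that held the read and -7.61 without the other. Eif5a2, the less widely expressed relative of the hypusinated translation factor eIF5A, kept the most. It was at 119 and 110 in knockout EPCAM+ and at 175 and 141 in knockout EPCAM- cells, against 293 and 339 and then 442 and 390 in the control, 2.76-fold and 2.63-fold lower.

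The nuclear genes differed widely in how much was left. Zfp518b, a zinc finger gene, had 55 and 33 in knockout EPCAM+ and 57 and 25 in knockout EPCAM- cells, against 945 and 691 and then 776 and 624 in the control. That was 18.6-fold and 17.1-fold lower, and the lowest of the other 18 libraries was at 591. Bend4, which encodes a BEN domain protein, had 136 and 81 and then 180 and 134 in the knockout, against 588 and 1210 and then 835 and 1179 in the control. Its ratios were 8.29-fold and 6.41-fold, with the control EPCAM+ libraries far apart. Pogk, a KRAB domain gene derived from a pogo-type DNA transposon, was at 229 and 154 in knockout EPCAM+ and at 219 and 176 in knockout EPCAM- cells. The control had 481 and 688 in EPCAM+ and 716 and 881 in EPCAM- cells, which is 3.05-fold and 4.04-fold.

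**Figure D1:**
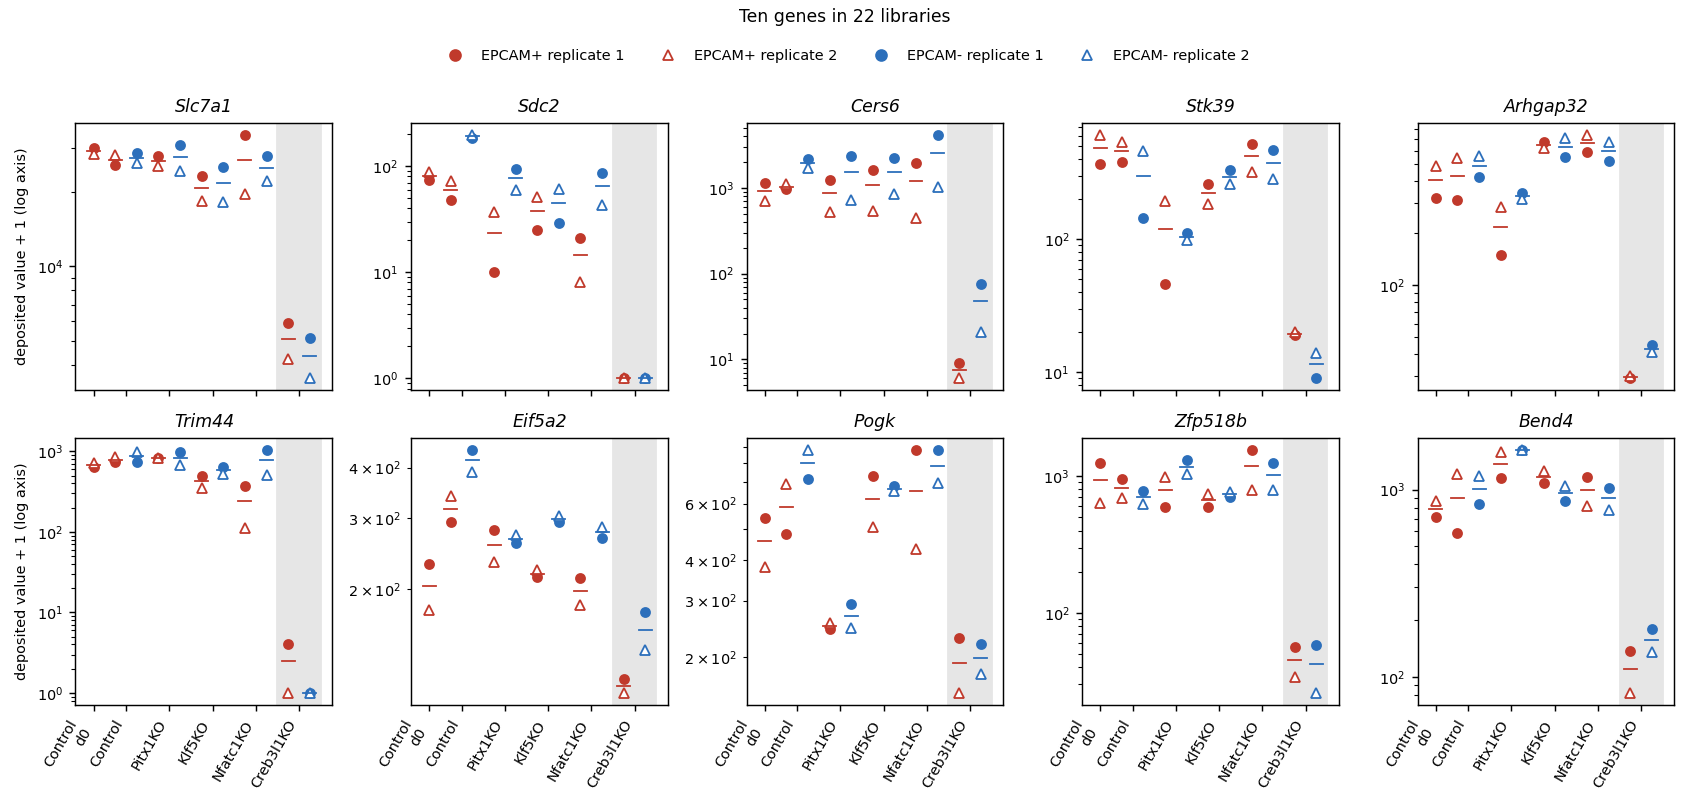
Deposited value plus 1 of each gene on a log axis in the 22 libraries, with lines along the x axis, EPCAM+ in red, EPCAM- in blue, filled circles for replicate 1, open triangles for replicate 2, short bars for group means and the Creb3l1 knockout shaded. The 4 shaded values lie under the other 18 in each panel, by a wide gap for Trim44 and Zfp518b and by almost none for Eif5a2 (175 against 177) and Pogk (229 against 244).

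For all 10 genes the 4 knockout libraries lay below the other 18, as 88 of the 19569 tested genes did (0.45%), and nothing is read from that count because the same libraries chose the genes. Against the control alone, 5.82% of tested genes were lower in both fractions without overlap. The reverse order, all 4 above the other 18, held for 26 genes (0.133%), none of them a member. The nearest to the limit were Eif5a2, with 175 in the highest knockout library against 177 in the lowest other library, and Pogk, with 229 against 244. Just outside the chosen set stood 16 further genes that were lower and called in both fractions of the Creb3l1 knockout. Calls for lower values made up 0.184% of tested genes in EPCAM+ and 0.24% in EPCAM- cells. Of those 16 genes, 5 also had all 4 knockout libraries below the other 18, and Cdh2, Gata6 and Tceal8 are named below among the genes with the most similar pattern.

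**Figure D2:**
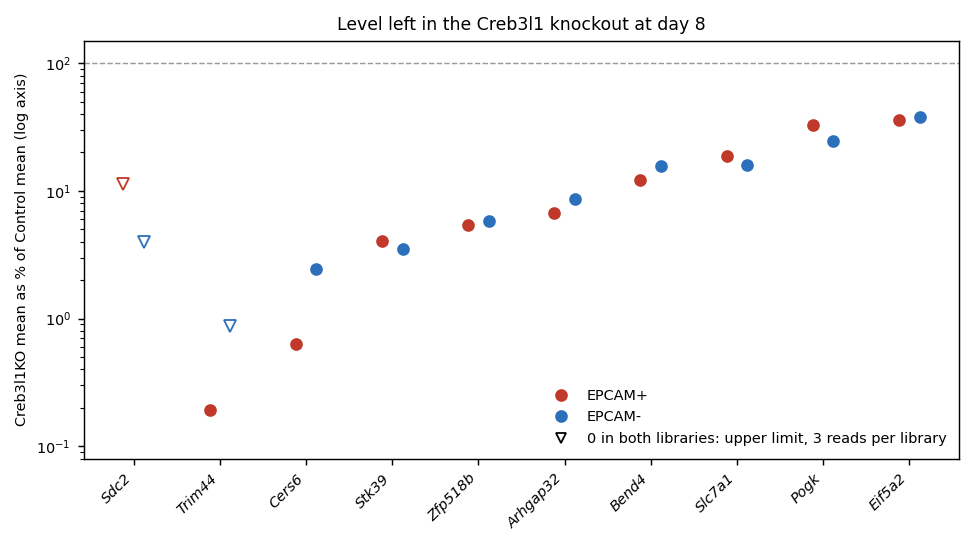
Mean of the 2 Creb3l1 knockout libraries as a percentage of the mean of the 2 control libraries at day 8 (log axis), EPCAM+ in red and EPCAM- in blue. Open triangles are upper limits for groups at 0 in both libraries (3 reads per library). Filled points run from 0.191% for Trim44 to 38.0% for Eif5a2.

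Set against their own exon length, the genes kept a different order in the knockout. In the control line at day 8 the median value per kb of exon over 4 libraries was 2360 for Slc7a1, 157 for Cers6, 140 for Trim44, 107 for Zfp518b, 102 for Bend4 and 84.6 for Stk39. Pogk followed at 73.2, Eif5a2 at 72.5, Sdc2 at 36.0 and Arhgap32 at 28.0. Slc7a1 stood apart from the rest, with 2220 to 2480 in single libraries. Neighbours further down did not differ beyond their spread, as with Pogk at 50.2 to 91.9 and Eif5a2 at 58.3 to 87.9. In the Creb3l1 knockout Slc7a1 was again first with 406 per kb, Eif5a2 came next at 25.9 and Pogk at 20.6. Bend4 followed at 13.7, Zfp518b at 6.39, Stk39 at 3.13 and Arhgap32 at 2.01. Cers6 was then at 1.58 per kb, while Trim44 and Sdc2 had medians of 0.

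Outside the Creb3l1 knockout the genes varied by different amounts. Over the 18 other libraries Slc7a1 spanned 18130 to 33863 (1.87-fold), Eif5a2 177 to 442 (2.50-fold), Zfp518b 591 to 1558 (2.64-fold) and Bend4 588 to 1632 (2.78-fold). Trim44 spanned 110 to 1047 (9.52-fold), Cers6 443 to 4134 (9.33-fold), Stk39 45 to 608 (13.5-fold) and Sdc2 7 to 195 (27.9-fold). As a whole set they varied together little there. Over the 45 pairs of genes the median correlation of log2 values was 0.85 over all 22 libraries but 0.09 over the 18, where it ranged from -0.49 to 0.70 and was negative for 15 pairs. Some genes did vary together over the 18. Arhgap32, Stk39 and Pogk correlated with each other at 0.63 to 0.70, and Trim44 with Cers6, Sdc2, Slc7a1 and Eif5a2 at 0.51 to 0.63. These correlations share libraries and depth and are given as descriptions.

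The fractions gave a comparison that the choice of genes did not use, although the day 8 control libraries in it also entered that choice. Sdc2 rose from EPCAM+ to EPCAM- cells across the 4 lines other than the Creb3l1 knockout. Its values were 47 and 71 against 183 and 195 in the control, 9 and 36 against 93 and 58 in the Pitx1 knockout, 24 and 50 against 28 and 60 in the Klf5 knockout, and 20 and 7 against 85 and 42 in the Nfatc1 knockout. The EPCAM- library was higher in 8 of 8 same-numbered pairs, though by little in the Klf5 knockout. The share of all tested genes with such an order was not counted, so this and the pair counts below are descriptions. The mean went from 33.0 to 93.0, 2.82-fold (log2 1.53, SE 0.33, limma with Benjamini-Hochberg adjusted p 0.0108). Sdc2 was the only 1 of the 10 called, where 1.8% of all tested genes were called higher and 2.66% lower. No gene of the set was called in any single line. For the Creb3l1 knockout nothing is read from this, because its libraries chose the genes. There Sdc2 was at 0 in all 4 libraries and Trim44 had a single read, so neither could be called. The share of all tested genes called was 0.644% in the control, 0.317% in the Pitx1, 0.286% in the Klf5, 0.429% in the Nfatc1 and 0.291% in the Creb3l1 knockout.

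Cers6 was also higher in EPCAM- cells in 8 of 8 pairs, by 1.37-fold to 2.33-fold. The means were 1045 and 1898, a log2 difference of 0.82 (SE 0.44, limma adjusted p 0.377). Replicate 1 was above replicate 2 in most groups. With each line's replicates as a block, so that same-numbered fractions are compared directly, Cers6 was called (limma adjusted p 0.000488). In that fit Trim44 (log2 0.60, adjusted p 0.0264, 7 of 8 pairs) and Eif5a2 (log2 0.35, adjusted p 0.0256, 7 of 8 pairs) were called too, beside 8.6% of all tested genes called higher. A replicate block common to all lines also called Eif5a2 (adjusted p 0.0424) but not Cers6 or Trim44, beside 3.58% called higher. Slc7a1 was level across the fractions, with a log2 difference of 0.02 and a 95% interval of -0.25 to 0.28. The other 5 genes had log2 differences of -0.10 to 0.26 and limma adjusted p of 0.444 and above.

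**Figure D3:**
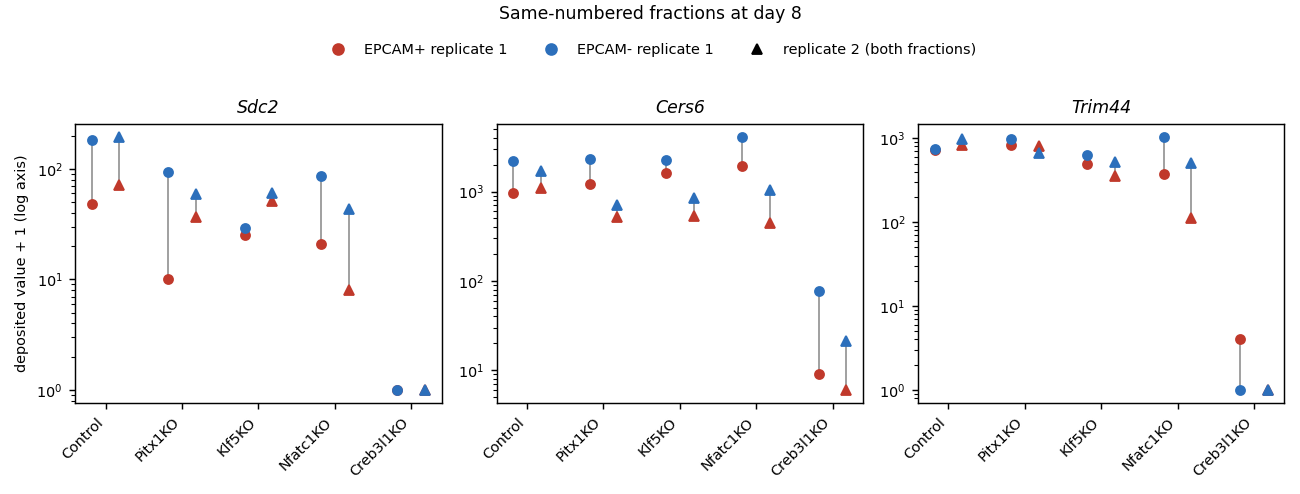
Deposited value plus 1 (log axis) of Sdc2, Cers6 and Trim44 in EPCAM+ (red) and EPCAM- (blue) libraries of the 5 lines at day 8. Grey lines join fractions with the same replicate number, circles for replicate 1 and triangles for replicate 2. Blue lies above red in all 8 pairs outside the Creb3l1 knockout for Sdc2 and Cers6 and in 7 of 8 for Trim44.

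In the Nfatc1 knockout the block within lines called Trim44 (371 and 110 against 1047 and 504, log2 1.84, limma adjusted p 0.00714), Sdc2 (log2 2.23, 0.0353) and Cers6 (log2 1.15, 0.0245), where 1.77% of all tested genes were called higher. Without a block their limma adjusted p-values were 0.213 to 0.839. The difference between lines was tested as an interaction for the 10 pairs of lines, only without a block. The pairing of same-numbered fractions was therefore not used there. limma called neither a member nor any other gene in any pair of lines, and 5 of the 100 member tests had an unadjusted p below 0.05. The pairs include those with the Creb3l1 knockout, whose libraries chose the genes and held few or no reads of several. With no gene called at all, the missing calls do not show that the lines were alike.

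Between day 8 and day 0 control EPCAM+ cells the intervals of several genes were too wide to call them level. No member and 0 of all tested genes (0.0%) were called by limma without a block, with 831 genes at an unadjusted p below 0.05 and 0 genes called by voom. Eif5a2 had the largest difference, from 230 and 177 at day 0 to 293 and 339 at day 8 (log2 0.64, SE 0.21, limma adjusted p 1.0). The 95% interval of the log2 difference was 0.2 to 1.09 in Eif5a2, without adjustment for the number of genes, and -0.66 to 0.41 in Slc7a1. In Sdc2 it was -1.83 to 0.94 and in Cers6 -1.69 to 2.08, so a change of either by a few fold would not have been seen.

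The next question was whether the genes were also low in the other knockouts. These comparisons share the control libraries with the contrast that chose the genes. In the Pitx1 knockout Pogk and Stk39 fell. Pogk was at 244 and 254 in EPCAM+ and at 291 and 245 in EPCAM- cells, all below the 481 to 881 of the control and close to the 154 to 229 of the Creb3l1 knockout. How many tested genes lay below the control in this way was not counted. For Pogk the difference was also tested. The Pogk mean over both fractions was 2.68-fold lower (log2 -1.39, SE 0.22, limma adjusted p 0.00161). In EPCAM- cells alone it fell by 1.57 on the log2 scale (adjusted p 0.0229), a call that was lost when any 1 of the 4 libraries was left out, where 0.577% of all tested genes were called lower. In EPCAM+ cells the log2 difference was -1.21 (adjusted p 0.111, with a replicate block 0.0309). There 0.276% of all tested genes were called lower, and 0.976% with the block. Stk39 was at 45 and 193 and then 110 and 97, with 143 to 536 in the control, so the groups overlapped. Its mean was 3.41-fold lower (log2 -1.78, SE 0.42, limma adjusted p 0.0232). Calls for lower values made up 2.06% of all tested genes in this comparison.

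The Stk39 call rested on single libraries and settings. It was lost when control EPCAM+ replicate 2, control EPCAM- replicate 2, Pitx1 knockout EPCAM+ replicate 1, or either Pitx1 knockout EPCAM- replicate was left out. The Pogk call on the mean of both fractions held in each of those fits. With a replicate block Arhgap32 (log2 -0.78, adjusted p 0.011) and Eif5a2 (log2 -0.47, 0.0452) were called as well, beside 4.03% of all tested genes called lower. Bend4 lay in the other direction, at 1149 and 1580 and then 1631 and 1632 (log2 0.70, SE 0.23, adjusted p 0.105). Slc7a1 and Trim44 had log2 differences that rounded to 0.00, with 95% intervals of -0.38 to 0.38 and -0.85 to 0.85.

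The Klf5 and Nfatc1 knockouts did not share a call with the set. No member was called by limma against the control in either, with 3 and 4 members at an unadjusted p below 0.05 on the mean of both fractions and 0 called by voom. The background in these comparisons was low too, 0.46% of all tested genes lower in the Klf5 knockout (0.0511% in EPCAM+ and 0.138% in EPCAM- cells alone) and 0.0307% in the Nfatc1 knockout (0.0% in either fraction alone). Sdc2 had the largest differences, with log2 -1.45 (SE 0.46, adjusted p 0.205) in the Klf5 knockout and -1.91 (SE 0.46, 0.158) in the Nfatc1 knockout, beside -1.48 (SE 0.46, 0.0852, with voom 0.0391) in the Pitx1 knockout. Its EPCAM- values of 28 to 93 in these 3 lines were all under the control's 183 and 195, though the share of all tested genes ordered this way was not counted. Trim44 was lowest outside the Creb3l1 knockout in Nfatc1 knockout EPCAM+ cells, at 371 and 110. With a replicate block Eif5a2 was called in the Nfatc1 knockout (log2 -0.63, adjusted p 0.0431), where 0.337% of all tested genes were called lower.

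Comparisons among the Pitx1, Klf5 and Nfatc1 knockouts used no library of the contrast that chose the genes. Against the Klf5 knockout the Pitx1 knockout had lower Arhgap32 (149 and 282 and then 340 and 315, against 547 to 709, log2 -1.29, SE 0.23, limma adjusted p 0.0037). Pogk was lower as well (244 to 291 against 507 to 728, log2 -1.30, SE 0.22, adjusted p 0.0029). Neither gene's 4 libraries overlapped with those of the Klf5 knockout. The share of all tested genes without such overlap was not counted, so this is a description. Against the Nfatc1 knockout Arhgap32 (log2 -1.27, adjusted p 0.00522), Pogk (log2 -1.43, 0.00205) and Stk39 (log2 -1.96, 0.0172) fell. The Stk39 call was lost without Pitx1 knockout EPCAM+ replicate 1, either Pitx1 knockout EPCAM- replicate, or replicate 1 of either fraction of the Nfatc1 knockout, and when other groups were left out of the fit (adjusted p 0.0769). The background of lower calls was 1.81% and 1.63%. Between the Klf5 and Nfatc1 knockouts limma called no member, with 0 at an unadjusted p below 0.05 and 0 called by voom, where 0.0971% of all tested genes were called.

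**Figure D4:**
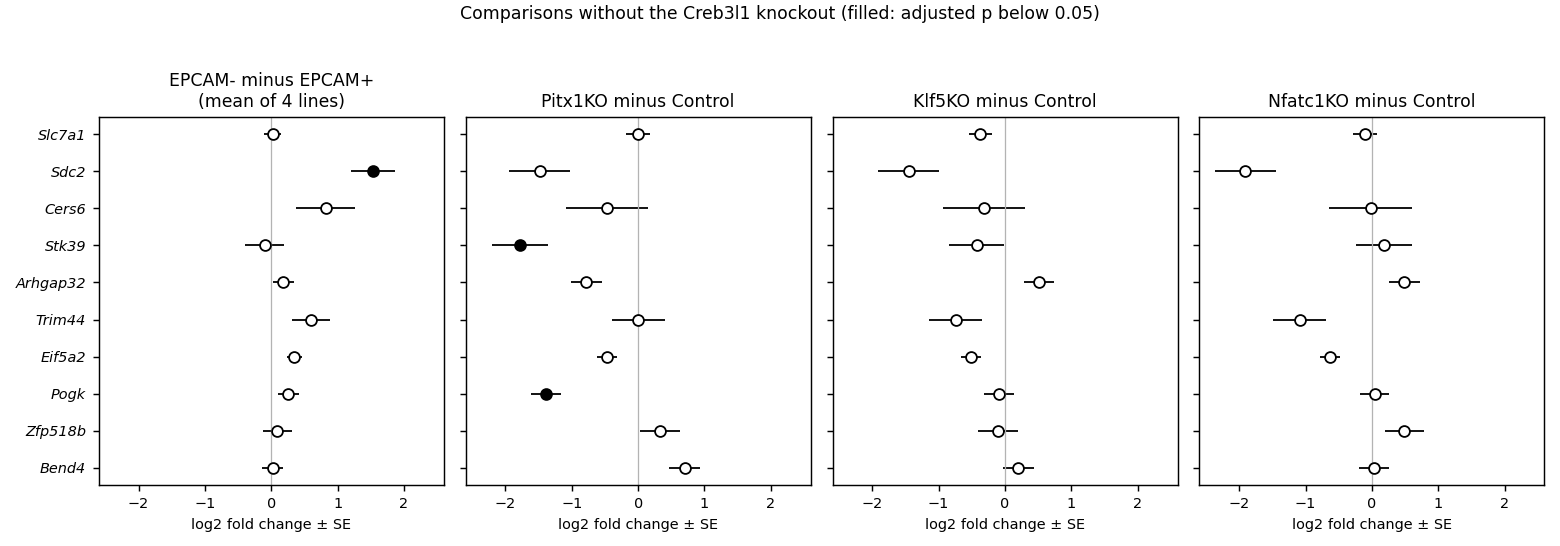
log2 fold change with standard error of each gene in 4 comparisons, filled where the limma adjusted p was below 0.05. The first panel is EPCAM- minus EPCAM+ over the 4 lines other than the Creb3l1 knockout, and the others are a knockout minus the control over both fractions. The filled points are Sdc2 in the first panel (1.53) and Pogk (-1.39) and Stk39 (-1.78) in the second.

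Replicates differed in a way that the groups did not set. Cers6 was higher in replicate 1 in 10 of 11 groups, with a median ratio of 2.67, and Slc7a1 in 10 of 11 with a median ratio of 1.26. Arhgap32 went the other way in 8 of 11 groups, with a median ratio of 0.78. The labels enter the replicate number under batch, and its part in these values was not tested beyond the blocks above.

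Genes around the members were taken by position, with the members left out. Stk39 and Cers6, each other's neighbours, are therefore in none of the counts that follow. The 36 protein-coding genes that lie nearest, up to 2 on each side and without the members, had 0 called by limma in either fraction of the Creb3l1 knockout, 4 in each fraction at an unadjusted p below 0.05, and 0 called by voom. Of all tested genes 0.194% in EPCAM+ and 0.261% in EPCAM- cells were called. Their median log2 difference was -0.15 in EPCAM+ and -0.05 in EPCAM- cells. Within 1000 kb there were 133 tested genes with medians of -0.11 and -0.01, and 0 were called. By limma 17 in EPCAM+ and 14 in EPCAM- cells had an unadjusted p below 0.05. Over all 19569 tested genes 1172 and 1180 did. Of the 133 genes 9 overlap a member, and 7 of these had such a p in each fraction. Whether a region as a whole was low was not tested. Cd44, the hyaluronan receptor and a neighbour of Trim44, had 27314 and 28086 in knockout EPCAM+ cells against 22706 and 26782 in the control. Spc25, a kinetochore component near Cers6, had 574 and 838 against 804 and 940. Wdr1, an actin disassembly factor next to Zfp518b, had 6794 and 6715 against 7995 and 7019. Rpl22l1, a ribosomal protein gene 24.2 kb from the start of Eif5a2, had 1488 and 1261 against 2156 and 1562. Atp8a1, a phospholipid flippase near Bend4, had the smallest adjusted p of the nearest genes in EPCAM+ cells (371 and 393 against 242 and 158 in the knockout, log2 -0.96, adjusted p 0.592). In EPCAM- cells the control had 268 and 257 against 116 and 153 in the knockout (log2 -0.97, limma adjusted p 0.509).

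**Figure D5:**
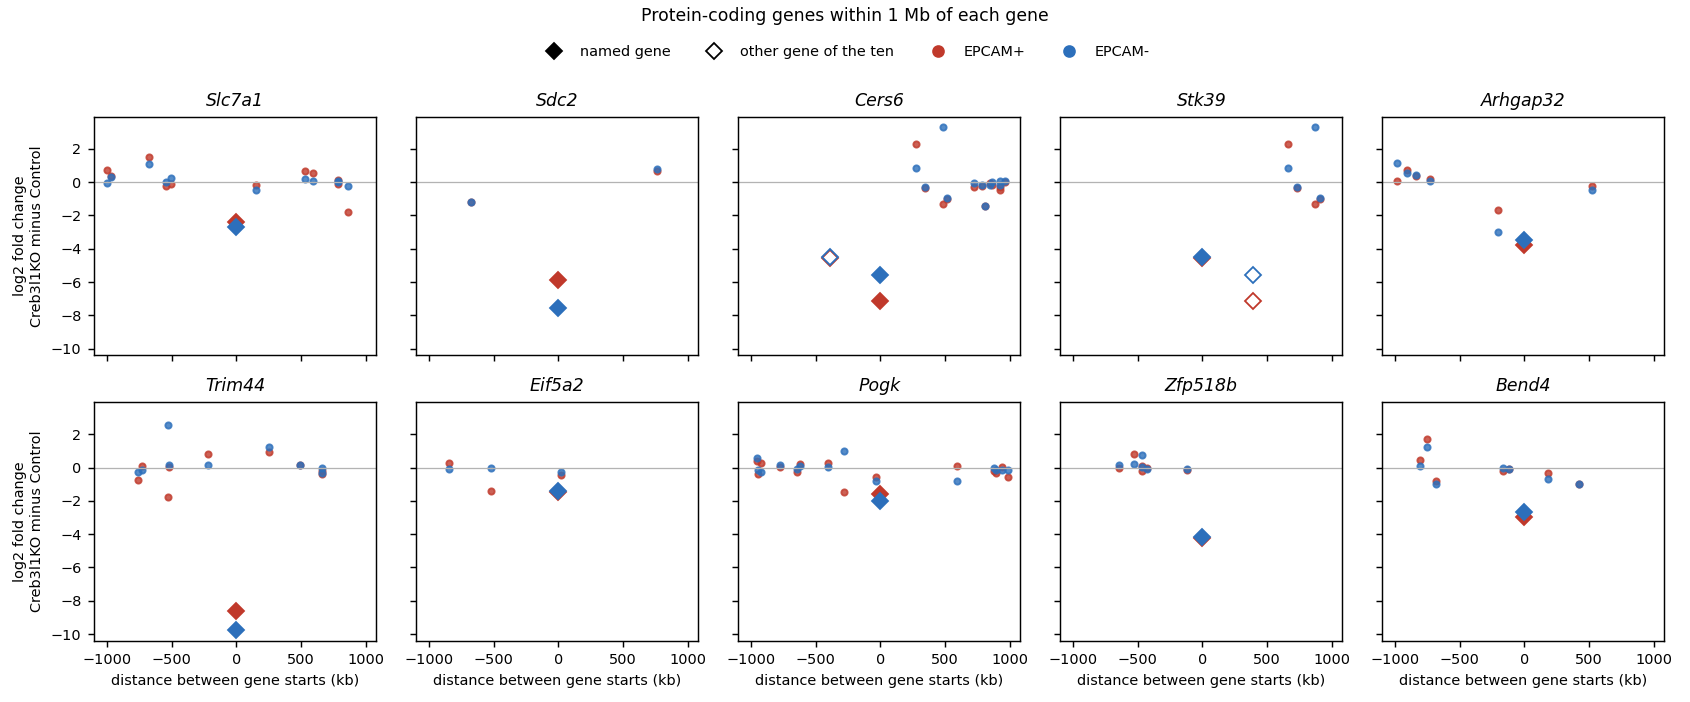
log2 fold change, Creb3l1 knockout minus control, of tested protein-coding genes within 1000 kb of each gene, against the distance between gene starts in kb. Filled diamonds are the named gene, open diamonds another gene of the set, circles other genes, EPCAM+ in red and EPCAM- in blue. The diamonds lie under most circles, with Stk39 and Cers6 in each other's panels.

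Some annotated genes overlap the members in position, and whether they share reads was not tested. The 6 transcript models inside Cers6 that await confirmation in the annotation, all on its strand, were at 0 to 3 in the 4 knockout libraries. Gm38377, the one seen in all other libraries, was at 0 in the knockout against 3 to 137 elsewhere, and its correlation with Cers6 over the 18 other libraries was 0.80. None of them was called, with adjusted p of 0.209 and above. Reads from unspliced Cers6 RNA and from these models cannot be told apart by position. Tada1, a coactivator subunit gene on the opposite strand whose end overlaps the end of Pogk, was at 149 to 225 in the knockout and at 156 to 388 in the other libraries (log2 -0.54 and -0.81, adjusted p 0.906 and 0.671). Gm26756 and Gm42632 overlap Bend4 on the other strand and had at most 3 in the knockout. Over the 18 other libraries they were low too, at 0 to 19 and 0 to 26 with medians of 6.0. Neither was called. Whether counting used strand is not given in the sources used here, so values of overlapping genes are uncertain.

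Relatives of the members did not pass the test. Sdc1 and Sdc4, the other syndecans of epithelial cells, were at 4356 and 5068 and at 5356 and 4309 in knockout EPCAM+ cells, against 4232 and 3931 and then 5244 and 5771 in the control. Cers2 was at 3536 and 4076 against 4506 and 4004, and Cers5 at 1153 and 1539 against 1530 and 1449. Oxsr1, the close relative of SPAK, had 2418 and 2528 against 2425 and 2339. Eif5a, the main eIF5A gene, had 8820 and 11261 against 12756 and 13218 (log2 -0.38, SE 0.21, limma adjusted p 0.903). Bend3 had 1089 and 1124 against 1052 and 1037, and Zfp518a 909 and 786 against 888 and 975. Pogz had 1970 and 1690 against 1355 and 1405, Sdc3 1123 and 751 against 149 and 948, and Slc7a2 0 and 0 against 14 and 0. None of these 11 genes was called in either fraction.

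The 9 lists of genes that share a role with a member, or with the CREB3 family, held 124 tested genes that are not members. In EPCAM+ cells 0 were called in the Creb3l1 knockout by limma, with 9 at an unadjusted p below 0.05, and the median log2 difference was 0.03 beside -0.02 over all tested genes. In EPCAM- cells 1 was called and the median was -0.04 beside -0.01. The called gene was Gpc4, a glypican, which like Sdc2 carries heparan sulfate at the cell surface. It was at 0 and 0 in knockout EPCAM- cells against 152 and 539, with a fitted log2 difference of -8.17 (limma adjusted p 0.00335). The Gpc4 call was lost with voom (adjusted p 0.291) and without control EPCAM- replicate 2 (0.0525). In EPCAM+ cells Gpc4 was at 0 and 3 against 16 and 277 (log2 -5.10, adjusted p 0.169). The list of syndecans, glypicans and heparan sulfate enzymes had 16 tested genes with medians of 0.11 and -0.23. The 20 tested genes of ceramide synthesis and turnover had medians of -0.09 and -0.02 with 0 called, and the 10 of the WNK-SPAK pathway 0.10 and -0.03 with 0 called. The amino acid transport list (17 genes) had 0.07 and 0.03 and the eIF5A and hypusination list (10 genes) -0.29 and -0.19, each with 0 called. The Trim44 relatives (10 genes) had -0.04 and -0.02, the BEN, pogo and ZNF518 relatives (11 genes) 0.04 and -0.10, and the CREB3 family with its proteases (10 genes) 0.12 and 0.05, again with 0 called.

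Of 7 markers of mesenchymal tumour cells, all detected, Cdh2 (N-cadherin) fell in both fractions of the Creb3l1 knockout and Prrx1 fell in EPCAM- cells, and the others were not called. The median log2 difference of the 7 was 0.16 in EPCAM+ cells, where it ranged from -3.53 to 0.99, and -0.58 in EPCAM- cells, where it ranged from -3.82 to 0.24. Zeb2 was the highest in both fractions (log2 0.99 and 0.24, limma adjusted p 0.887 and 0.998). Cdh2 was at 197 and 79 in EPCAM+ against 1000 and 2109, and at 316 and 158 in EPCAM- against 2406 and 4160 (log2 -3.53 and -3.82, limma adjusted p 0.00324 and 0.00125). Prrx1 was at 2301 and 2219 in EPCAM- cells against 4150 and 4650 (log2 -0.96, adjusted p 0.0304), a call that was lost without any 1 of these 4 libraries (adjusted p 0.137 to 0.228), without trend (0.101) and when other groups were left out of the fit (0.204). The Cdh2 call in EPCAM+ cells was lost without control replicate 2 (0.0505), without knockout replicate 2 (0.0647) and when other groups were left out (0.213). The 7 markers summed to 38807 to 42453 in knockout EPCAM- cells, under the 50291 to 79193 of the 8 other EPCAM- libraries, and to 8414 to 11364 in EPCAM+ cells, within the 7526 to 25654 of the others. The 7 epithelial markers summed to 23705 to 25991 in knockout EPCAM- cells, where the others had 15720 to 24547, and to 39129 to 46608 in EPCAM+ cells within the others' 32554 to 56805. The part of these markers in the low values of the 10 genes was not tested.

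Among markers of other cell types, those of leukocytes and endothelium were scarce, while fibroblast markers were higher in EPCAM- cells. Fibroblast markers had 5 of 7 detected, Fap at 0 in every library, and sums of 264 to 2087 in the knockout and 139 to 4975 elsewhere. In EPCAM- cells alone these sums were 681 to 2087 in the knockout and 658 to 4975 elsewhere. Leukocyte markers had 2 of 7 detected, Cd3e at 0 in every library, and sums of 181 to 290 against 135 to 360. Endothelial markers had 3 of 7 detected and sums of 85 to 167 against 65 to 431. In each case the range in the knockout lay within that of the other libraries.

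Among 12588 genes with a mean of at least 50, the pattern over 22 libraries most like the mean of the 10 was that of Cdh2 (Pearson r 0.938), then Mdfic (0.924), Gata6 (0.907), Tceal8 (0.887) and Serinc5 (0.877). Mdfic, a gene with a MyoD family inhibitor domain, was at 0 to 8 in the knockout and at 40 to 342 elsewhere. Gata6, a zinc finger transcription factor, was at 10 to 15 against 43 to 328. Tceal8 was at 77 to 257 against 334 to 1174, and Serinc5, a membrane protein that restricts retroviruses, at 59 to 99 against 123 to 276. Over the 18 libraries outside the Creb3l1 knockout the same correlations were 0.539, 0.473, 0.313, 0.655 and -0.106, so the likeness came mainly from the 4 knockout libraries. The members themselves had 0.755 (Pogk) to 0.966 (Slc7a1) with the mean of the other 9 over 22 libraries and -0.139 (Bend4) to 0.564 (Sdc2) over the 18.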

How the data were processed

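RNA was extracted from sorted cells with the RNeasy micro kit and libraries were made with Ovation Solo, per the labels' protocols. FastQC, Trimmomatic, STAR, Picard and HTSeq with the GRCm38/mm10 genome are named without versions in the submitters' processing notes. The authors deposited normalised values per gene, read here as a score: 99.6 to 99.9% of a library's values fell on multiples of 1 step, rounded up, as read counts scaled to a common total would. No rows were without a gene name.

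GENCODE M21 held 49412 of 49671 genes (99.5%). Genes with 10 units or more in 2 or more libraries were fitted as log2(value + 1), 1 mean per group over all 22 libraries, with limma 3.58.1 in R 4.3.3 (version 1.17.8 of data.table). Variances were moderated robustly along a trend on the mean, with 11 residual degrees of freedom and a median of 5.63 from the prior. Fold changes on that scale understate changes of low genes. P-values were adjusted by Benjamini-Hochberg over 19569 genes within each of 21 contrasts, called below 0.05, and intervals are 95%. matplotlib 3.10.9, scipy 1.17.1, pandas 2.3.3 and numpy 2.4.6 under Python 3.11.15 did the rest, and the fit was tested on simulated data. Counting intervals cover counting error only.

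The labels enter the replicate number under batch, so it was taken to pair libraries. The replicate difference correlated over 0.1 in 36 of 55 pairs of groups (median 0.146, range -0.131 to 0.381), and at 0.171 to 0.381 between fractions of a line. Blocked values are printed where they change a call.

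Alternatives were a pseudocount of 5, no filter and a filter at 50, trimmed-mean scaling, no trend, compared groups only, blocks, voom on step-derived reads, and leaving out each library. The members and lists were chosen with earlier results of these data known. The values of 1 of the 9 role lists on its own are not reported here, and its genes are in the pooled counts. Besides the members, Creb3l1 and Epcam, the rule for names takes the nearest 2 genes on each side, called list genes, close relatives, and the 5 genes most correlated with the members' mean. The overlapping genes, the marker genes at 0, and the examples among neighbours were chosen after their values were seen.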

Additional observations from a re-analysis of the deposited data

How the results depend on the processing

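Depth limited Sdc2 and Trim44 most: the Sdc2 value of 7 is 2 reads, and the log2 differences in the Creb3l1 knockout moved with a pseudocount of 5 from -8.61 to -6.96 (Trim44, EPCAM+) and from -5.88 to -3.65 (Sdc2, EPCAM+). The trimmed-mean scaling shifted no contrast's median by over 0.0913 in size. Each group had 2 libraries, and a group left with 1 was taken to vary like the others.

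The replicate block moved some counts of members called. Across fractions it gave 2 in place of 1 over the 4 lines (4 with the block within lines), 1 in place of 0 in the Creb3l1 knockout (1 within lines, Cers6 each time, from 2 and 3 reads in EPCAM+ cells, so nothing is read from it) and 3 in place of 0 in the Nfatc1 knockout (within lines). Against the control it gave 1 in place of 0 for Pitx1 EPCAM+, 4 in place of 2 for the Pitx1 mean and 1 in place of 0 for the Nfatc1 mean. The block within lines was not run for contrasts across lines, which it cannot estimate. It changed no other count of members called. Without trend, and with compared groups only, the Pitx1 counts were 0 in place of 1 in EPCAM- cells and 1 in place of 2 on the mean. Pogk in EPCAM- cells was then at an adjusted p of 0.0622 and 0.0878, and Stk39 on the mean at 0.0507 and 0.131. Of the role lists, 1 gene was called in EPCAM- cells, 2 with a pseudocount of 5 and 0 with voom.

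Leaving out each library gave 0 to 1 members in Pitx1 EPCAM+ cells (1 without Pitx1 EPCAM+ replicate 2), 0 in EPCAM- cells, 1 to 4 on the Pitx1 mean (4 without that library), 2 to 3 against each of the Klf5 and Nfatc1 knockouts, and 0 to 1 list genes in EPCAM+ cells (1 without control EPCAM+ replicate 1). The sign turned within the leave-one-out range of differences that were not called: Cers6 -0.72 to 0.07 (Klf5 minus control), -0.98 to 0.09 (Pitx1 minus Nfatc1) and -0.84 to 0.24 (Klf5 minus Nfatc1), Sdc2 -0.04 to 0.90 (Pitx1 minus Nfatc1) and Trim44 -0.08 to 0.79 (Klf5 minus Nfatc1). The causes were not tested. The likeness of Serinc5 turned to -0.106 over 18 libraries. The Sdc2 call across fractions, the Pogk call on the Pitx1 mean, and those of Pogk and Arhgap32 between knockouts held in all alternatives run.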
